A study of Homo sapiens with 18 samples.

Results

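The genes described here are 10 genes of the human microRNA machinery: the Argonautes AGO1, AGO2, AGO3 and AGO4, the GW182 scaffolds TNRC6A, TNRC6B and TNRC6C, and the processing factors DROSHA, DGCR8 and DICER1. They were chosen by name, out of 60675 human gene rows, and all 10 were among the 26804 genes that passed the filter on low counts. RNA came from HEK293T, a transformed human embryonic kidney line, in which doxycycline (1 µg/mL for 24 h) had switched on YTHDF3-ADAR, YTHDF2-ADAR or YTHDF1-ADAR. Every group also received cycloheximide (100 µg/mL for 10 min), which holds ribosomes on mRNA. Lysates were spread on a sucrose gradient of 10 to 50%, and the fractions with more than 2 ribosomes were pooled as polysome RNA. Each line gave polysome RNA and total RNA, with 3 libraries per group, 6 groups and 18 libraries, and no library without a fusion was analysed here. The labels state neither whether a line is a single clone nor whether replicates are separate cultures, so the p-values measure the spread between these libraries, which may be technical.

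YTHDF proteins are cytoplasmic readers of N6-methyladenosine (m6A), a modified base common in mRNA. Fused to the deaminase ADAR, such a reader converts adenosines near its binding sites to inosine, which is read as G, and the edits mark the transcripts it has met. MicroRNAs are cut from a primary transcript in the nucleus by the Microprocessor, exported, cut again by Dicer and loaded on an Argonaute. The Argonaute then recruits a TNRC6 protein, which brings in deadenylases and silences the target mRNA. The comparisons below address whether the mRNAs that encode these proteins were on polysomes, whether their levels differed between lines, and how they were edited by each fusion.

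Among the Argonautes, AGO2, which can slice a paired target, is encoded on the minus strand at chr8:140520156-140635633 (ENSG00000123908, GRCh38, as are all positions here). AGO4, AGO1 and AGO3 lie one after the other on the plus strand of chromosome 1. AGO4 spans chr1:35808016-35857890 (ENSG00000134698), AGO1 spans chr1:35869808-35930532 (ENSG00000092847) and AGO3 spans chr1:35930718-36072500 (ENSG00000126070). The gaps between them are 11917 bases from AGO4 to AGO1 and 185 bases from AGO1 to AGO3. The TNRC6 scaffolds are unlinked: TNRC6A is at chr16:24610209-24827632 (ENSG00000090905), TNRC6B at chr22:40044817-40335808 (ENSG00000100354) and TNRC6C at chr17:77959240-78108835 (ENSG00000078687), all on the plus strand. DROSHA, the nuclear RNase III of the Microprocessor, is at chr5:31400497-31532196 on the minus strand (ENSG00000113360). DGCR8, its double-stranded RNA-binding partner, is at chr22:20080232-20111877 on the plus strand (ENSG00000128191). DICER1, the cytoplasmic RNase III, is at chr14:95086228-95158010 on the minus strand (ENSG00000100697). TNRC6C shared 13.0% of its exon bases with TMC6 on the opposite strand, DGCR8 shared 9.58% with other genes, and AGO1 shared 2.85%. The other members shared less than 1%. Kits were strand-specific, but no source used here states the strand setting of the read counting, so reads of such overlaps cannot be assigned with certainty.

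Libraries held 42699303 to 67549159 counts. Of 6 marker genes of HEK293T, 5 exceeded 1 CPM (a count scaled to a common library total) in every library and EYA1 reached 0.970 in its lowest. Of 9 markers of other cell types, 7 had a median below 1 CPM, and COL1A1 (5.17 to 32.8 CPM) and GFAP (1.27 to 5.40 CPM) were present. The rows of YTHDF1 and YTHDF2 were highest in their own line without overlap. The row of YTHDF3 had 68.7 to 87.5 CPM in YTHDF3-ADAR total RNA and 45.5 to 63.2 CPM in total RNA of the other lines. In polysome RNA it had 74.2 to 89.0 CPM in YTHDF3-ADAR, which overlapped YTHDF1-ADAR (72.2 to 79.4 CPM) but not YTHDF2-ADAR (58.3 to 64.4 CPM). YTHDF3-ADAR replicate 1 stood apart from replicates 2 and 3 in both fractions. On the first principal component, with 43.5% of the variance, replicate 1 lay at 5.11 in polysome RNA and -2.95 in total RNA. Replicates 2 and 3 lay between -55.4 and -33.0, and the 12 libraries of the other lines between -0.11 and 22.4. Results of YTHDF3-ADAR that were called, or became called, are therefore also given without replicate 1. Replicate 1 of total RNA of YTHDF2-ADAR and of YTHDF1-ADAR also differed from its group, with lncRNA shares of 19.1% and 25.7%, against 13.8 to 15.5% in the 4 other libraries of those groups.

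Levels set against each other per length, as RPKM over the merged exons of all isoforms, placed AGO2 first in every group. AGO3 was last in total RNA averaged over the lines, but not in each group. In YTHDF2-ADAR total RNA AGO4 was last (2.11 RPKM, against 2.58 RPKM for AGO3). AGO4 was also last in polysome RNA of YTHDF2-ADAR and YTHDF1-ADAR, and TNRC6C in that of YTHDF3-ADAR. AGO2 averaged 14.3 RPKM in total RNA over the lines, above 82.3% of the 15675 protein-coding genes tested. DROSHA (11.0 RPKM), AGO1 (9.98 RPKM), DGCR8 (9.14 RPKM) and DICER1 (8.82 RPKM) followed. TNRC6B (7.33 RPKM) and TNRC6A (7.18 RPKM) came next, then TNRC6C (4.30 RPKM), AGO4 (2.86 RPKM) and AGO3 (2.33 RPKM, above 38.7%). Single total RNA libraries ranged from 6.01 to 10.8 RPKM for DGCR8 and from 4.30 to 12.8 RPKM for DICER1, so the order of these neighbours lay within their spread. Across the 18 libraries the levels of DROSHA spanned 1.25-fold and those of AGO1 1.38-fold, whereas DGCR8 spanned 4.12-fold and DICER1 3.29-fold. The span of DGCR8 rested on replicates 2 and 3 of YTHDF3-ADAR: without them it was 1.56-fold (50.5 to 79.0 CPM), whereas that of DICER1 was still 2.80-fold and that of DROSHA 1.25-fold.

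**Figure D1:**
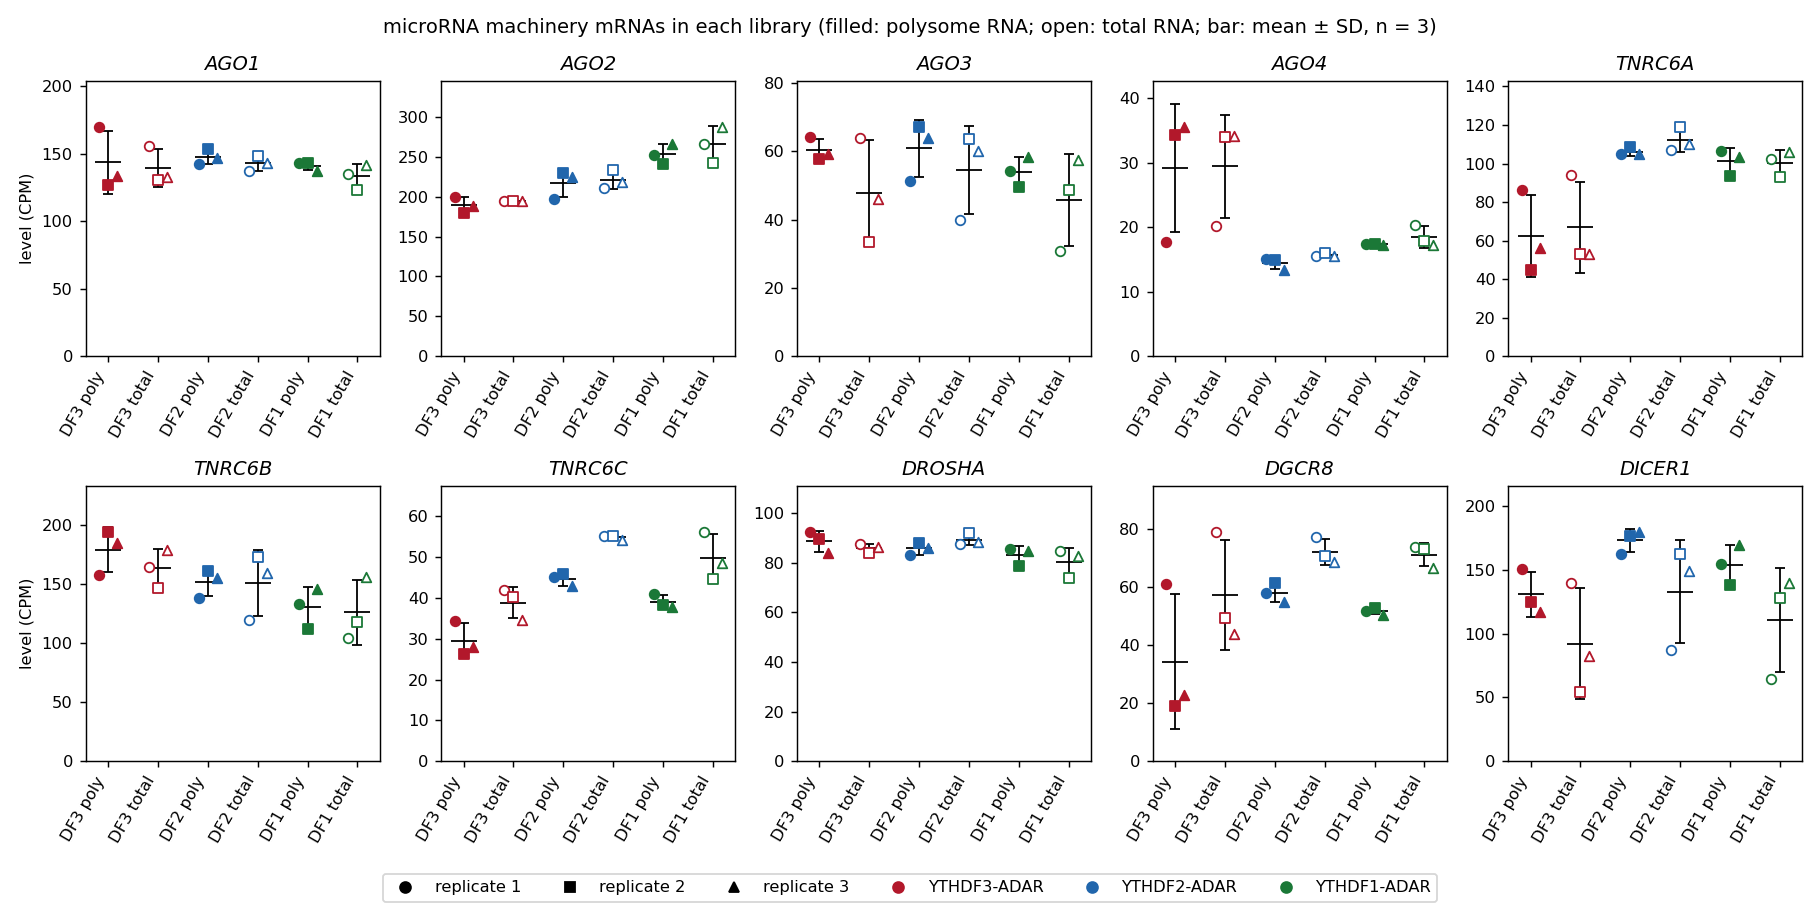
Level of each member in each library, in CPM after TMM scaling, by line (YTHDF3-ADAR, YTHDF2-ADAR, YTHDF1-ADAR from left to right) and fraction (polysome RNA filled, total RNA open), with the mean and SD of 3 libraries. AGO4, TNRC6A and DGCR8 show YTHDF3-ADAR replicates 2 and 3 away from replicate 1, and TNRC6C shows polysome RNA below total RNA in each line.

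Polysome RNA was first compared with total RNA of the same line. Averaged over the lines, TNRC6C and DGCR8 mRNA were lower on polysomes than in total RNA and DICER1 mRNA was higher, while the other 7 members did not pass the test. Here a member is called when its adjusted p in edgeR's quasi-likelihood test over all genes is under 0.05. The average called 1 member higher and 2 lower, beside 22.0% and 22.9% of all genes tested. In YTHDF3-ADAR 0 members were called higher and 1 lower, beside 8.01% and 12.1% of genes. In YTHDF2-ADAR 0 were called in either direction, beside 6.71% higher and 9.04% lower. In YTHDF1-ADAR 0 were called higher and 1 lower, beside 9.26% and 11.9%. For YTHDF2-ADAR, 1 member had an unadjusted p under 0.05 in edgeR, and DESeq2 also called 0 members. The median log2 fold change of the members was 0.01, -0.04 and 0.03 in YTHDF3-ADAR, YTHDF2-ADAR and YTHDF1-ADAR, against -0.05, 0.03 and 0.03 over all genes. Members were thus called no more often than genes at large. In bulk RNA, fewer cells with a transcript and less of it per cell cannot be told apart.

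TNRC6C, the least abundant of the silencing scaffolds, was lower on polysomes in 9 of 9 same-numbered pairs of libraries, with log2 differences from -0.61 to -0.22. In YTHDF3-ADAR it had 34.4, 26.3 and 27.9 CPM in polysome RNA and 41.9, 40.1 and 34.5 CPM in total RNA. In YTHDF2-ADAR it had 45.2, 45.9 and 42.8 CPM in polysome RNA and 55.2, 55.1 and 54.2 CPM in total RNA. In YTHDF1-ADAR it had 40.9, 38.1 and 37.7 CPM in polysome RNA and 56.1, 44.5 and 48.6 CPM in total RNA. The polysome and total RNA values did not overlap within any line. The mean log2 fold change was -0.35 ± 0.06 (SE; edgeR quasi-likelihood test, adjusted p = 0.000304), and it stayed called in 25 of 26 alternatives. The exception used library totals without normalization factors, which turned TNRC6C to 0.02 while the median of all genes moved to 0.36. By line, edgeR gave -0.40 ± 0.11 in YTHDF3-ADAR (adjusted p = 0.0185) and -0.35 ± 0.11 in YTHDF1-ADAR (adjusted p = 0.0309). YTHDF2-ADAR gave -0.30 ± 0.11 (edgeR adjusted p = 0.0780), and with same-numbered libraries as a replicate block it was called (adjusted p = 0.0130), as it was without YTHDF3-ADAR polysome replicate 1 (adjusted p = 0.0300). The call in YTHDF3-ADAR was lost on leaving out its polysome replicate 2 or 3 or its total RNA replicate 1 or 2 (-0.37 to -0.26). The call in YTHDF1-ADAR was lost on leaving out any polysome replicate or total RNA replicate 1 or 3 (-0.39 to -0.25). Without YTHDF3-ADAR replicate 1 in both fractions the YTHDF3-ADAR value was -0.39 (adjusted p = 0.00983). Its exon overlap with TMC6 is named above, and the part of TMC6 reads in these values was not tested.

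DGCR8 is of interest for its own sequence, because its mRNA holds microRNA hairpins that the Microprocessor is known to cut. The mature microRNAs inside DGCR8 exons and, for comparison, those inside a DICER1 intron are shown 5′ to 3′ with the seed (bases 2 to 8) in capitals, from RefSeq on GRCh38.p14. Those of DGCR8 lie at chr22:20085797-20085818 (miR-3618), chr22:20086072-20086093 (miR-1306-5p) and chr22:20086112-20086129 (miR-1306-3p), on the plus strand. Those of DICER1 lie at chr14:95137961-95137982 (miR-3173-5p) and chr14:95137923-95137944 (miR-3173-3p), on the minus strand.
hsa-miR-3618: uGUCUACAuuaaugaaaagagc
hsa-miR-1306-5p: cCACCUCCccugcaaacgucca
hsa-miR-1306-3p: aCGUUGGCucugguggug
hsa-miR-3173-5p: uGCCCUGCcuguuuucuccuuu
hsa-miR-3173-3p: aAAGGAGGaaauaggcaggcca
No seed was shared. These libraries were made from long RNA, and the rows of the hairpins count reads over the hairpin, not mature microRNA. MIR1306 (85 bases) held 88 to 334 reads per library and MIR3618 (88 bases) 31 to 165, whereas the intronic MIR3173 held 43 reads in all 18 libraries and was not tested. Both DGCR8 hairpins lie wholly within its exons, so their reads cannot be told from those of the DGCR8 mRNA. Averaged over the lines, the log2 fold change on polysomes was -0.23 ± 0.18 for MIR1306 and -0.21 ± 0.27 for MIR3618, and neither was called.

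DGCR8 mRNA was lower on polysomes in 9 of 9 same-numbered pairs, with log2 differences from -1.36 to -0.20. In YTHDF3-ADAR it had 61.1, 19.2 and 22.8 CPM in polysome RNA and 79.0, 49.2 and 44.0 CPM in total RNA. In YTHDF2-ADAR it had 58.0, 61.4 and 54.9 CPM in polysome RNA and 77.1, 70.8 and 68.5 CPM in total RNA. In YTHDF1-ADAR it had 51.9, 52.7 and 50.5 CPM in polysome RNA and 73.9, 73.0 and 66.5 CPM in total RNA. Polysome values lay below every total RNA value in the YTHDF2-ADAR and YTHDF1-ADAR lines, and in YTHDF3-ADAR the polysome RNA of replicate 1 exceeded the total RNA of replicates 2 and 3. The mean log2 fold change was -0.50 ± 0.18 (SE; edgeR adjusted p = 0.0289), and no single line was called: -0.74 ± 0.31 in YTHDF3-ADAR, -0.31 ± 0.31 in YTHDF2-ADAR and -0.46 ± 0.31 in YTHDF1-ADAR. With same-numbered libraries as a replicate block, edgeR called YTHDF3-ADAR (-0.89, adjusted p = 0.00109) and YTHDF1-ADAR (-0.46, adjusted p = 0.0257) but not YTHDF2-ADAR (adjusted p = 0.120). Without YTHDF3-ADAR replicate 1 in both fractions, edgeR called DGCR8 lower in each line, with -1.08 in YTHDF3-ADAR, -0.29 in YTHDF2-ADAR and -0.43 in YTHDF1-ADAR. Leaving out polysome replicate 1 of YTHDF3-ADAR alone gave -1.45 in YTHDF3-ADAR and -0.46 in YTHDF1-ADAR, both called. With replicate 1 as the sole YTHDF3-ADAR library per fraction, YTHDF3-ADAR gave -0.36 (edgeR adjusted p = 0.0693). The mean lost its call in 6 of 26 alternatives. Library totals without normalization factors gave -0.15 (edgeR adjusted p = 0.489), no filter on low counts -0.47 (adjusted p = 0.119), and leaving out replicate 1 of total RNA of both YTHDF2-ADAR and YTHDF1-ADAR -0.48 (adjusted p = 0.0792). Of single libraries, it was lost on leaving out polysome replicate 3 of YTHDF3-ADAR or YTHDF2-ADAR or total RNA replicate 1 of YTHDF3-ADAR (-0.49 to -0.36).

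DICER1 mRNA was higher on polysomes in 9 of 9 same-numbered pairs, with log2 differences from 0.11 to 1.27. In YTHDF3-ADAR it had 150.3, 125 and 117 CPM in polysome RNA and 139.5, 54.5 and 82.4 CPM in total RNA. In YTHDF2-ADAR it had 162, 177 and 179.6 CPM in polysome RNA and 86.8, 162 and 149 CPM in total RNA. In YTHDF1-ADAR it had 154, 138 and 169 CPM in polysome RNA and 64.0, 128 and 139.6 CPM in total RNA. The spread lay in total RNA, where the lowest values were those of YTHDF3-ADAR replicate 2, YTHDF1-ADAR replicate 1, YTHDF3-ADAR replicate 3 and YTHDF2-ADAR replicate 1. The mean log2 fold change was 0.45 ± 0.18 (SE; edgeR adjusted p = 0.0477), and the call was lost in 17 of 26 alternatives. It was kept on leaving out total RNA replicate 2 or 3 of YTHDF1-ADAR, total RNA replicate 2 of YTHDF2-ADAR, or polysome replicate 3 or total RNA replicate 1 of YTHDF3-ADAR. On leaving out any other single library it was lost (0.36 to 0.49, adjusted p from 0.0522 to 0.0940). Without replicate 1 of total RNA of YTHDF2-ADAR and YTHDF1-ADAR, the libraries with the highest lncRNA shares, it was 0.28 (adjusted p = 0.162). Without YTHDF3-ADAR replicate 1 in both fractions it was 0.60 (adjusted p = 0.0143). YTHDF3-ADAR itself (0.50 ± 0.31) was called without its total RNA replicate 1 (1.01, adjusted p = 0.0229), and YTHDF2-ADAR (0.38 ± 0.31) and YTHDF1-ADAR (0.47 ± 0.31) were not called on leaving out any single library.

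AGO3 followed the same libraries as DICER1: it was higher on polysomes in 9 of 9 pairs, with log2 differences from 0.0033 to 0.81, and its total RNA ran from 31.0 to 64.0 CPM. Its mean log2 fold change was 0.24 ± 0.13 (edgeR adjusted p = 0.154), and it was called with the replicate block (0.28, adjusted p = 0.0479). It was also called without YTHDF3-ADAR replicate 1 in both fractions (0.36, adjusted p = 0.0453) or in total RNA alone (0.38, adjusted p = 0.0174), where YTHDF3-ADAR itself was called too (0.68, adjusted p = 0.0404). The remaining members lay near 0 in the average over lines. The mean log2 fold change was 0.06 ± 0.06 for AGO1, -0.04 ± 0.05 for AGO2, -0.07 ± 0.12 for AGO4, -0.06 ± 0.12 for TNRC6A, 0.06 ± 0.09 for TNRC6B and 0.01 ± 0.04 for DROSHA. These 6 lay between -0.02 and 0.14 without YTHDF3-ADAR replicate 1 in both fractions, and none was called. DROSHA had 84.1 to 92.5 CPM in polysome RNA and 83.9 to 87.4 CPM in total RNA of YTHDF3-ADAR, and its groups overlapped in every line. An antisense or divergent lncRNA neighbour was measured for a pair of members. TNRC6B-DT, divergent to TNRC6B, was lower on polysomes (mean log2 fold change -0.57 ± 0.12, edgeR adjusted p = 0.00108), while DICER1-AS1 gave -0.33 ± 0.16 and was not called. TNRC6B-DT held only 19 to 51 reads per library. By line it was called in YTHDF1-ADAR alone (-0.82, edgeR adjusted p = 0.0119), with -0.55 in YTHDF3-ADAR (adjusted p = 0.0651) and -0.34 in YTHDF2-ADAR (adjusted p = 0.319).

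**Figure D2:**
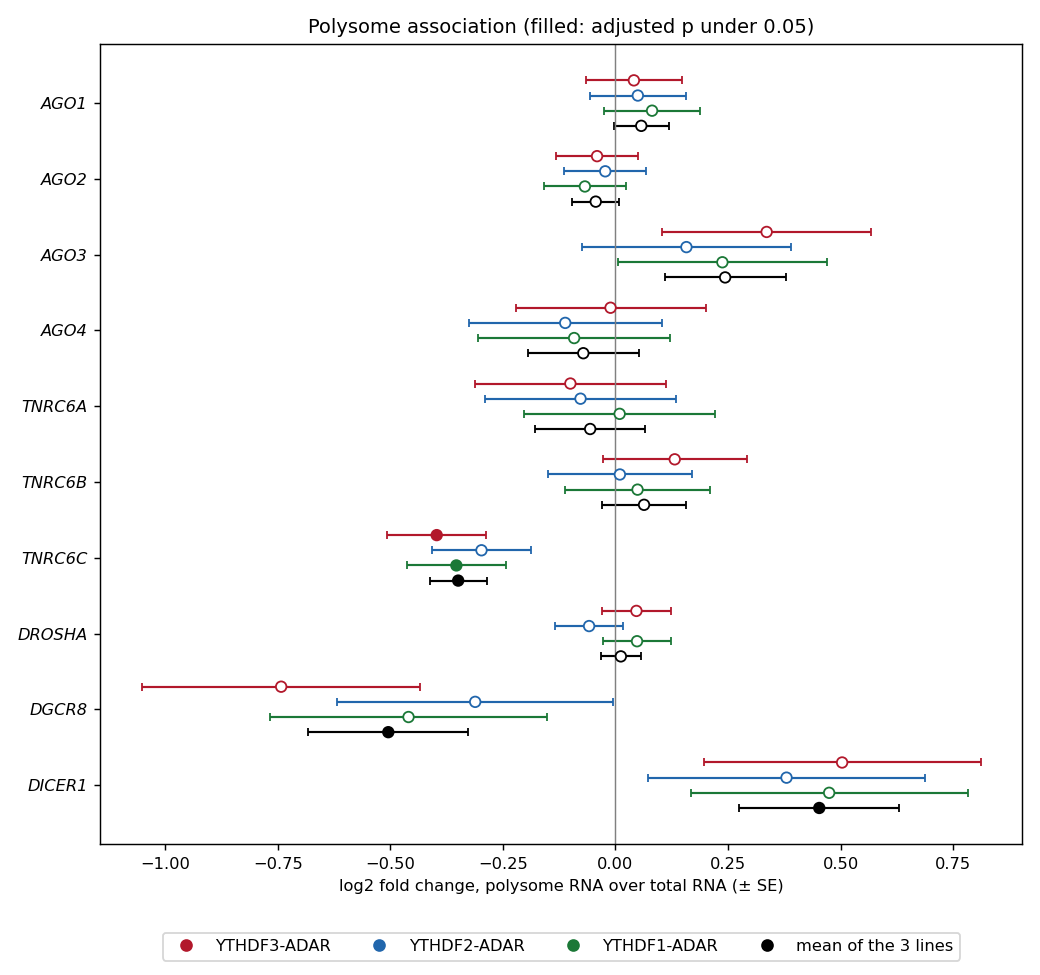
Log2 fold change of polysome RNA over total RNA (± SE) for each member in YTHDF3-ADAR, YTHDF2-ADAR and YTHDF1-ADAR and averaged over the lines, with filled points at an adjusted p under 0.05 (edgeR, TMM scaling). TNRC6C is called lower in both the YTHDF3-ADAR and YTHDF1-ADAR lines and in their average with YTHDF2-ADAR (-0.35 with TMM scaling, 0.02 with library totals alone), DGCR8 is called lower and DICER1 higher in the average, and AGO1, AGO2 and DROSHA lie between -0.07 and 0.08.

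The authors' deposited table holds a polysome comparison whose line is not named. Its fold changes correlated most closely with those of YTHDF1-ADAR across genes (Pearson's r = 0.999; genes are not independent replicates). In the authors' deposited table TNRC6C had a log2 fold change of -0.36 with an adjusted p of 0.0238, and DGCR8 (-0.47, adjusted p = 0.345) and DICER1 (0.47, adjusted p = 0.334) were not below 0.05. The other 7 members had adjusted p from 0.593 to 0.996 in the authors' deposited table.

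Partners of the machinery moved on polysomes in both directions. Of 20 processing partners, 19 were tested (LIN28A did not pass the filter), and averaged over the lines 8 were called higher, 5 lower and 6 neither. The log2 fold change was 0.72 for LIN28B, which blocks let-7 processing, 0.46 for the poly(A) polymerase TENT2, and 0.40 for RAN, the GTPase of pre-microRNA export. It was 0.39 for the splicing factor SRSF3, 0.28 for the Dicer partner TARBP2, 0.22 for SMAD4, 0.20 for the deadenylase PARN and 0.19 for the Dicer partner PRKRA. The lower ones were ZSWIM8 (-0.74), the ubiquitin ligase adaptor of target-directed microRNA decay, the helicase DDX17 (-0.49), the exonuclease DIS3L2 (-0.43), the exporter XPO5 (-0.36) and the RNA-binding protein KHSRP (-0.20). Both Dicer partners had the sign of DICER1, whose own call was lost in 17 of 26 alternatives, while XPO5 and its GTPase RAN had opposite signs. Values of partners without normalization factors are not given here, so how far their signs depend on the scaling is not known.

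Of 26 silencing partners, all tested, 10 were called higher, 7 lower and 9 neither in the average over lines. The higher ones were the decapping enzyme DCP2 (0.86), TSNAX (0.51) and TSN (0.41), which form the nuclease C3PO, the HSP90 cochaperone PTGES3 (0.46) and the deadenylases CNOT7 (0.37) and CNOT8 (0.32). The helicase DDX6 (0.36), the deadenylase subunit PAN3 (0.28), the import receptor IPO8 (0.24) and the cap-binding repressor EIF4E2 (0.22) were also higher. The lower ones were the helicase MOV10 (-0.69), the EIF4E2 partner GIGYF2 (-0.64), the poly(A)-binding protein PABPC1 (-0.55), the decapping scaffold EDC4 (-0.49), the chaperone HSP90AB1 (-0.39), WTIP (-0.38) and EIF4ENIF1 (-0.15). The median log2 fold change was 0.15 for the processing list and 0.13 for the silencing list, against -0.0014 for all genes, and the counts stand beside 22.0% of genes higher and 22.9% lower. By line, 3 processing partners were higher and 3 lower in YTHDF3-ADAR, 1 and 2 in YTHDF2-ADAR, and 2 and 4 in YTHDF1-ADAR. The silencing list gave 6 higher and 2 lower in YTHDF3-ADAR, 5 and 1 in YTHDF2-ADAR, and 5 and 5 in YTHDF1-ADAR. Beside these, 8.01% of all genes were higher and 12.1% lower in YTHDF3-ADAR, 6.71% and 9.04% in YTHDF2-ADAR, and 9.26% and 11.9% in YTHDF1-ADAR. Leaving out its replicate 1 in both fractions, YTHDF3-ADAR gave 5 higher and 5 lower processing partners and 10 higher and 4 lower silencing partners, and the average over lines 8 and 6, and 14 and 9. The share of all genes called on polysomes in that setting is not given here. The lists were not tested against all genes, of which 15675 of 26804 were protein-coding. Whether a rise is particular to the partners was therefore not settled.

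The lines were then compared within a fraction. AGO4, TNRC6A and TNRC6C were called in YTHDF3-ADAR against both other lines in polysome RNA, and AGO2 and TNRC6B against YTHDF1-ADAR alone, whereas 0 members were called between YTHDF2-ADAR and YTHDF1-ADAR in either fraction. In polysome RNA, YTHDF3-ADAR against YTHDF2-ADAR called 1 member higher and 2 lower, beside 13.6% and 11.5% of genes, and against YTHDF1-ADAR 2 higher and 3 lower, beside 11.9% and 11.4%. In total RNA, YTHDF3-ADAR against YTHDF2-ADAR called 1 higher and 2 lower, beside 15.2% and 7.57%, and against YTHDF1-ADAR 1 higher and 2 lower, beside 11.6% and 6.52%. YTHDF2-ADAR against YTHDF1-ADAR called 2.35% of genes in polysome RNA and 1.83% in total RNA. There, 1 member in each fraction had an unadjusted p under 0.05 in edgeR, and DESeq2 called 0 members. Comparisons of YTHDF3-ADAR with the other lines share its libraries, and those of one line with both others are not independent. Total RNA of YTHDF3-ADAR also had a different make-up, with 71.5 to 74.8% of counts on protein-coding genes, against 60.4 to 68.4% in YTHDF2-ADAR and 55.2 to 68.3% in YTHDF1-ADAR. The part of that difference in these results was not tested.

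AGO4, the Argonaute with the shortest gene, was higher in YTHDF3-ADAR. Polysome RNA held 17.8, 34.3 and 35.6 CPM in YTHDF3-ADAR, 15.1, 15.0 and 13.5 CPM in YTHDF2-ADAR and 17.4, 17.4 and 17.3 CPM in YTHDF1-ADAR. Total RNA held 20.2, 33.9 and 34.2 CPM in YTHDF3-ADAR, 15.5, 16.0 and 15.5 CPM in YTHDF2-ADAR and 20.4, 17.8 and 17.3 CPM in YTHDF1-ADAR. Replicates 2 and 3 of YTHDF3-ADAR were about equally high in both fractions, and replicate 1 lay near the range of YTHDF1-ADAR. Against YTHDF2-ADAR the log2 fold change was 1.01 ± 0.21 in polysome RNA (edgeR adjusted p = 0.00424) and 0.91 ± 0.21 in total RNA (adjusted p = 0.00770). Against YTHDF1-ADAR it was 0.75 ± 0.21 in polysome RNA (edgeR adjusted p = 0.0197) and 0.67 ± 0.21 in total RNA (adjusted p = 0.0392). Without replicate 1 of YTHDF3-ADAR in both fractions these were 1.28, 1.08, 1.01 and 0.85. With replicate 1 as its sole YTHDF3-ADAR library per fraction they were 0.29, 0.37, 0.03 and 0.13, and none was called. The polysome call against YTHDF1-ADAR was lost without any polysome replicate of YTHDF1-ADAR or polysome replicate 2 or 3 of YTHDF3-ADAR (0.59 to 0.75). The total RNA call against YTHDF1-ADAR was lost in 18 of 27 alternatives. Among these was leaving out any YTHDF1-ADAR library, any YTHDF2-ADAR library other than total RNA replicate 1, or total RNA replicate 2 or 3 of YTHDF3-ADAR (0.55 to 0.75). AGO1 and AGO3, its neighbours on chromosome 1, were not called in any comparison between lines, and AGO1 lay within 0.10 of 0 on the log2 scale in each.

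TNRC6A moved the other way in the same libraries. Polysome RNA held 86.3, 45.0 and 56.1 CPM in YTHDF3-ADAR, 105, 109 and 105 CPM in YTHDF2-ADAR and 106, 93.5 and 104 CPM in YTHDF1-ADAR. Total RNA held 94.3, 53.1 and 53.3 CPM in YTHDF3-ADAR, 107, 119 and 110.2 CPM in YTHDF2-ADAR and 103, 93.1 and 106 CPM in YTHDF1-ADAR. Replicates 2 and 3 of YTHDF3-ADAR lay below every library of the other lines, and replicate 1 lay just below them in polysome RNA and among those of YTHDF1-ADAR in total RNA. Against YTHDF2-ADAR the log2 fold change was -0.77 ± 0.21 in polysome RNA (edgeR adjusted p = 0.0170) and -0.74 ± 0.21 in total RNA (adjusted p = 0.0208). Against YTHDF1-ADAR it was -0.70 ± 0.21 in polysome RNA (edgeR adjusted p = 0.0281), and -0.59 ± 0.21 in total RNA was not called (adjusted p = 0.0649). The last was called without YTHDF3-ADAR polysome replicate 1 or 2 (-0.59 in both) or total RNA replicate 1 (-0.95). Without YTHDF3-ADAR replicate 1 in both fractions edgeR called each of the 4 comparisons, from -1.11 to -0.95. With replicate 1 as the sole YTHDF3-ADAR library the 3 called values were -0.30 to -0.23, and none was called. Leaving out single libraries also ended calls. In polysome RNA the call against YTHDF2-ADAR was lost without replicate 2 or 3 of YTHDF3-ADAR or replicate 2 of YTHDF2-ADAR (-0.75 to -0.58). That against YTHDF1-ADAR was lost without replicate 2 or 3 of YTHDF3-ADAR or any replicate of YTHDF1-ADAR (-0.75 to -0.51). In total RNA the call against YTHDF2-ADAR was lost without replicate 2 or 3 of either line (-0.76 to -0.60).

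TNRC6C was lower in YTHDF3-ADAR in both fractions, with the values given above. Its polysome RNA in YTHDF3-ADAR did not overlap that of the other lines, and its total RNA lay below every total RNA library of theirs. Against YTHDF2-ADAR the log2 fold change was -0.60 ± 0.11 in polysome RNA (edgeR adjusted p = 0.00188) and -0.50 ± 0.11 in total RNA (adjusted p = 0.00541). Against YTHDF1-ADAR it was -0.40 ± 0.11 in polysome RNA (edgeR adjusted p = 0.0172) and -0.36 ± 0.11 in total RNA (adjusted p = 0.0343). Without replicate 1 of YTHDF3-ADAR in both fractions these were -0.71, -0.59, -0.52 and -0.45, and edgeR called each. With replicate 1 as the sole YTHDF3-ADAR library they were -0.37, -0.39, -0.18 and -0.25, and none was called. The polysome call against YTHDF1-ADAR was lost without YTHDF3-ADAR replicate 2 or 3 or YTHDF1-ADAR replicate 1 (-0.37 to -0.32). The total RNA call against YTHDF1-ADAR was lost without YTHDF3-ADAR replicate 2 or 3 or YTHDF1-ADAR replicate 1 or 3 (-0.38 to -0.26).

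TNRC6B, the third scaffold, had 158, 194 and 185 CPM in polysome RNA of YTHDF3-ADAR, 138, 161 and 155 CPM in YTHDF2-ADAR and 133, 112 and 146 CPM in YTHDF1-ADAR. It was higher in YTHDF3-ADAR than in YTHDF1-ADAR by 0.46 ± 0.16 (edgeR adjusted p = 0.0497), and it was not called elsewhere. That call was kept on leaving out total RNA replicate 1 or 3 of YTHDF1-ADAR, total RNA replicate 1 of YTHDF2-ADAR or replicate 1 of YTHDF3-ADAR in either fraction, and lost without any other single library (0.36 to 0.55). Without YTHDF3-ADAR replicate 1 in both fractions it was 0.55 (adjusted p = 0.0198). In total RNA against YTHDF1-ADAR, TNRC6B gave 0.37 ± 0.16 and was called without YTHDF1-ADAR total RNA replicate 3 (0.56, adjusted p = 0.0454). So TNRC6A and TNRC6C were lower and TNRC6B was higher in YTHDF3-ADAR polysome RNA than in YTHDF1-ADAR polysome RNA.

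AGO2 had the closest replicates of the members in YTHDF3-ADAR total RNA. Total RNA held 194, 195 and 195 CPM in YTHDF3-ADAR, 210.3, 233 and 219 CPM in YTHDF2-ADAR and 267, 242 and 287 CPM in YTHDF1-ADAR. Polysome RNA held 200.1, 179 and 189 CPM in YTHDF3-ADAR, 197, 230.2 and 225 CPM in YTHDF2-ADAR and 253, 240.4 and 266 CPM in YTHDF1-ADAR. Total RNA of the lines did not overlap, and AGO2 ran in the order YTHDF1-ADAR, YTHDF2-ADAR, YTHDF3-ADAR from high to low. Between YTHDF3-ADAR and YTHDF1-ADAR the log2 fold change was -0.42 ± 0.09 in polysome RNA (edgeR adjusted p = 0.00493) and -0.45 ± 0.09 in total RNA (adjusted p = 0.00427). The neighbouring steps were not called: -0.20 in polysome RNA and -0.18 in total RNA of YTHDF3-ADAR against YTHDF2-ADAR, and -0.22 and -0.27 of YTHDF2-ADAR against YTHDF1-ADAR. The values against YTHDF1-ADAR were -0.46 in polysome RNA and -0.48 in total RNA without YTHDF3-ADAR replicate 1, and edgeR called both. With replicate 1 as the sole YTHDF3-ADAR library, total RNA gave -0.45 (edgeR adjusted p = 0.0408) and polysome RNA -0.34 (adjusted p = 0.0734). The polysome value against YTHDF2-ADAR was called without YTHDF3-ADAR polysome replicate 1 (-0.24, adjusted p = 0.0475) or without replicate 1 in both fractions (-0.22, adjusted p = 0.0447).

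DGCR8 and DICER1 were not called between lines over the full set of libraries. DGCR8 in YTHDF3-ADAR polysome RNA gave -0.76 ± 0.31 against YTHDF2-ADAR (edgeR adjusted p = 0.0811) and -0.59 ± 0.31 against YTHDF1-ADAR (adjusted p = 0.172), with replicate 1 in the range of the other lines. Without that replicate in both fractions, edgeR called DGCR8 lower, with -1.45 and -1.29 in polysome RNA and -0.67 and -0.64 in total RNA against YTHDF2-ADAR and YTHDF1-ADAR in turn. Leaving out its polysome library alone gave -1.47 and -1.30 in polysome RNA. With replicate 1 as the sole YTHDF3-ADAR library the signs turned, to 0.07 and 0.24 in polysome RNA and 0.13 and 0.15 in total RNA, and none was called. DICER1 was called lower in total RNA of YTHDF3-ADAR against YTHDF2-ADAR (-0.99, edgeR adjusted p = 0.0281) without replicate 1 in both fractions, and likewise without replicate 1 of total RNA alone (adjusted p = 0.0165). DROSHA lay between -0.06 and 0.15 on the log2 scale in every comparison between lines, and none was called.

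**Figure D3:**
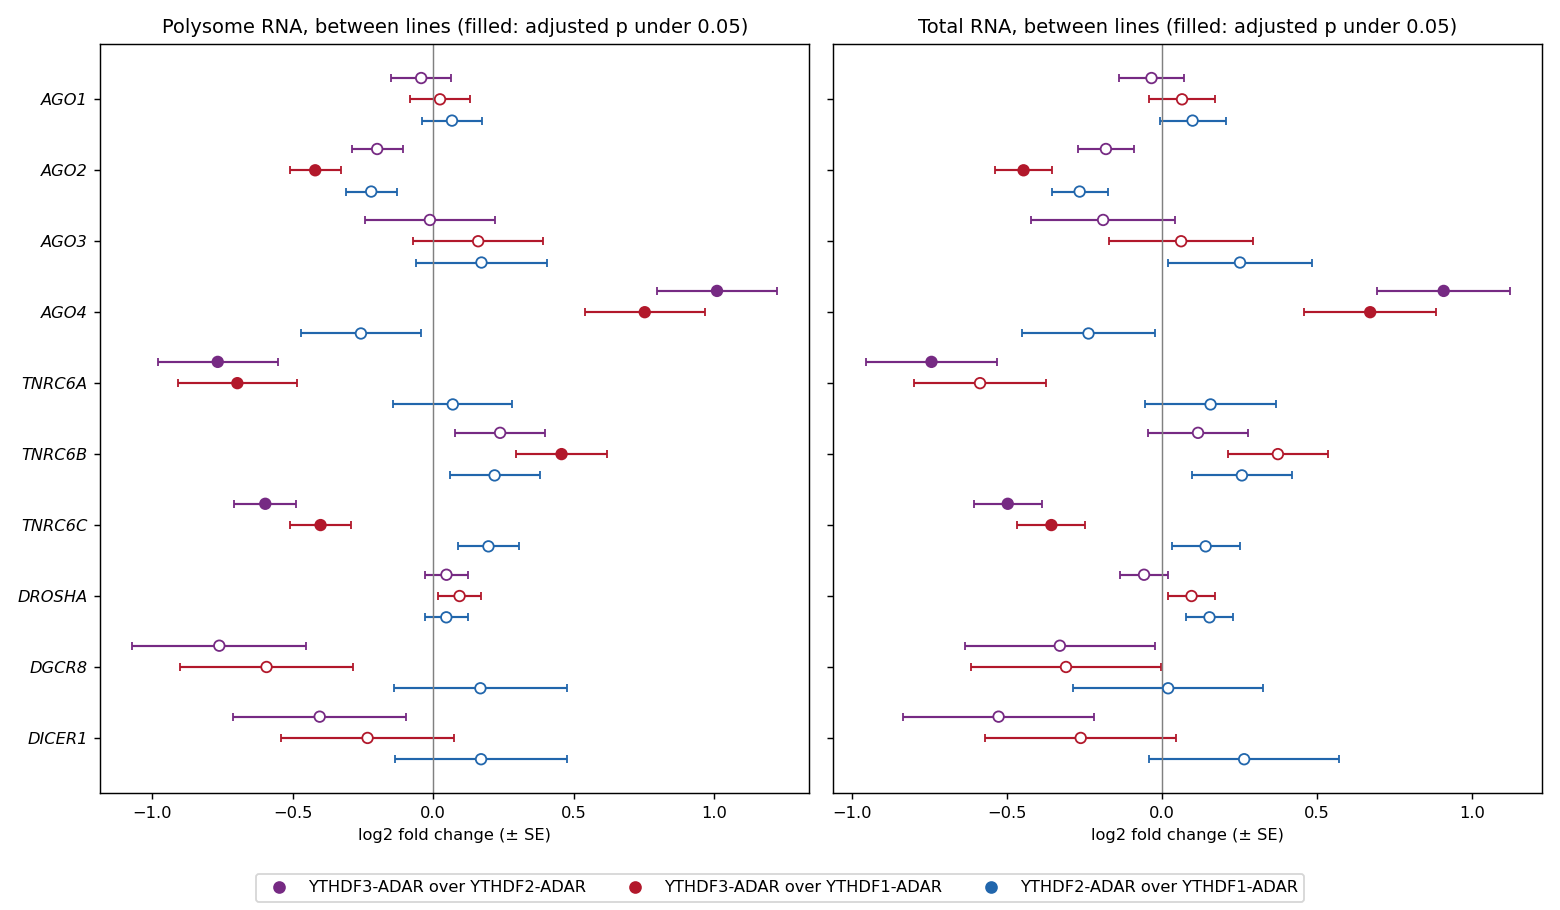
Log2 fold change between lines (± SE) for each member, in polysome RNA (left) and total RNA (right), with filled points at an adjusted p under 0.05 (edgeR). AGO4 lies to the right and TNRC6A and TNRC6C to the left in both comparisons of YTHDF3-ADAR, and YTHDF2-ADAR against YTHDF1-ADAR has no filled point.

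Of the partners, those called in YTHDF3-ADAR against the other lines included the deadenylase CNOT7, which was lower in each of the 4 comparisons. Its log2 fold change against YTHDF2-ADAR was -0.50 in polysome RNA and -0.37 in total RNA, and against YTHDF1-ADAR -0.96 and -0.81. The helicase DDX5 was lower in each as well, from -0.78 to -0.53. MOV10 was higher against YTHDF2-ADAR in both fractions (0.83 in polysome RNA and 0.76 in total RNA) and against YTHDF1-ADAR in polysome RNA (0.82), and the deadenylase subunit PAN2 was higher in total RNA against YTHDF1-ADAR (0.90). HNRNPA2B1 was lower in total RNA against YTHDF2-ADAR (-0.70) and YTHDF1-ADAR (-0.74), and EIF4E2 was lower in polysome RNA against both (-0.63). The processing list gave 0 higher and 5 lower of 19 in polysome RNA against YTHDF2-ADAR and 2 higher and 3 lower against YTHDF1-ADAR, and 0 and 2, then 1 and 2, in total RNA. The silencing list gave 1 higher and 4 lower of 26 in polysome RNA against YTHDF2-ADAR and 1 and 6 against YTHDF1-ADAR, and 1 and 4, then 1 and 3, in total RNA. No partner was called between YTHDF2-ADAR and YTHDF1-ADAR. When YTHDF3-ADAR replicate 1 was left out in both fractions, edgeR still called each comparison named here, with -1.02 to -0.53 for CNOT7, -1.02 to -0.71 for DDX5, 0.95 to 1.16 for MOV10, 1.16 for PAN2, -1.01 and -0.97 for HNRNPA2B1 and -0.82 and -0.80 for EIF4E2. The processing list then gave 1 higher and 9 lower in polysome RNA against YTHDF2-ADAR and 3 and 10 against YTHDF1-ADAR, and 1 and 12, then 1 and 8, in total RNA. The silencing list gave 3 and 7, then 5 and 8, in polysome RNA, and 6 and 11, then 4 and 10, in total RNA. Calls over all genes rose as well, to 13393 and 13010 genes in polysome RNA and 13745 and 12632 in total RNA against YTHDF2-ADAR and YTHDF1-ADAR in turn, where all libraries gave 6727, 6245, 6113 and 4856.

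Whether the change on polysomes itself differed between lines was tested as a difference of the log2 fold changes. No member was called, beside 0.0% of genes, in YTHDF3-ADAR minus YTHDF2-ADAR, YTHDF3-ADAR minus YTHDF1-ADAR and YTHDF2-ADAR minus YTHDF1-ADAR. At an unadjusted p under 0.05 edgeR listed 801, 877 and 166 of 26804 genes in that order, with 0 members among them, and DESeq2 called 9, 1 and 0 genes and 0 members. The largest member differences were those of DGCR8, -0.43 ± 0.43 and -0.28 ± 0.43 for YTHDF3-ADAR minus YTHDF2-ADAR and minus YTHDF1-ADAR. That fit did not use the pairs of libraries. With same-numbered libraries as a replicate block the DGCR8 differences were -0.58 ± 0.20 (edgeR adjusted p = 0.654) and -0.43 ± 0.20 (adjusted p = 0.660). Without YTHDF3-ADAR replicate 1 in both fractions these were -0.79 (edgeR adjusted p = 0.00447) and -0.65 (adjusted p = 0.0176), and DGCR8 was then the sole member called. That setting was chosen after seeing the data. It leaves out the YTHDF3-ADAR polysome library with 61.1 CPM of DGCR8, against 19.2 and 22.8 CPM in replicates 2 and 3. The share of all genes called in it is not given here, so the call is not shown to be particular to DGCR8. The lower level of TNRC6C on polysomes differed between lines by -0.10 ± 0.16, -0.04 ± 0.16 and 0.06 ± 0.16 in the same order. The first pair was -0.11 and -0.07 without YTHDF3-ADAR replicate 1, and neither was called.

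Editing by the fusions was taken from the authors' tables, which list per gene and line the number of sites and a summed score in each fraction, with a single value over the replicates. Score divided by sites is given here as editing per site. YTHDF3-ADAR had sites in 10 of 10 members and 105 sites in all, YTHDF2-ADAR in 6 members with 32 sites, and YTHDF1-ADAR in 9 members with 94 sites. The authors listed 7042, 4547 and 6858 genes for these lines, while 26804 genes passed the filter on counts. Merged exons of the members ran from 7315 bases (DGCR8) to 21153 bases (AGO3). The part of length and level in being listed was not tested. The median listed member had 7, 2 and 9 sites in that order, against 4, 3 and 4 over all genes listed. The row of ADARB1, an ADAR gene, also differed between lines, at 1079 to 1649.6 CPM in YTHDF3-ADAR, 32.4 to 40.5 CPM in YTHDF2-ADAR and 198 to 268 CPM in YTHDF1-ADAR. No source used here says which ADAR gene the fusions carry, the part of that difference in the site numbers was not tested, and the depth behind the scores is unknown.

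DROSHA was the most edited member by sites in every line. It had 30 sites in YTHDF3-ADAR, 23 in YTHDF2-ADAR and 27 in YTHDF1-ADAR, more than 97.6%, 98.3% and 97.2% of the genes listed for each line. Its editing per site was 1.36% in polysome RNA and 2.25% in total RNA of YTHDF3-ADAR. It was 0.656% in polysome RNA and 1.04% in total RNA of YTHDF2-ADAR, and 1.13% in polysome RNA and 1.52% in total RNA of YTHDF1-ADAR. Each fusion thus listed lower editing per site in polysome RNA, with natural log odds ratios of -0.51, -0.47 and -0.30 in the authors' tables, none called by the authors. The same mRNA was the one whose level was steadiest across libraries.

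TNRC6A came second with 28 sites in YTHDF3-ADAR, 3 in YTHDF2-ADAR and 20 in YTHDF1-ADAR. AGO1 had 12, 1 and 2 sites, AGO3 10, 2 and 3, and AGO2 2, 1 and 11, in the same order. TNRC6B had 3, 2 and 6. TNRC6C, DICER1 and DGCR8 were not listed for YTHDF2-ADAR, and had 4, 7 and 7 sites in YTHDF3-ADAR and 9, 7 and 9 sites in YTHDF1-ADAR. AGO4 was listed for YTHDF3-ADAR alone, with 2 sites. AGO3 had the highest editing per site in each line and fraction, and TNRC6C came next where it was listed. AGO3 stood at 7.04% in polysome RNA and 5.47% in total RNA of YTHDF3-ADAR, 10.6% and 2.99% in YTHDF2-ADAR, and 7.83% and 7.45% in YTHDF1-ADAR. TNRC6C stood at 4.53% in polysome RNA and 3.35% in total RNA of YTHDF3-ADAR and at 5.70% and 5.49% in YTHDF1-ADAR. DGCR8 stood at 2.12% in polysome RNA and 1.07% in total RNA of YTHDF3-ADAR and at 3.29% and 3.05% in YTHDF1-ADAR.

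In the authors' tables no member passed an adjusted p of 0.05 for editing in polysome RNA against total RNA, and the lowest were 0.610 in YTHDF3-ADAR, 1 in YTHDF2-ADAR and 0.947 in YTHDF1-ADAR. The authors' tables called 3.55%, 1.39% and 2.11% of the genes listed in those lines. Editing per site was lower in polysome RNA for 6 of 10 members in YTHDF3-ADAR, 4 of 6 in YTHDF2-ADAR and 4 of 9 in YTHDF1-ADAR, against 66.6%, 58.3% and 63.2% of all genes listed. The median editing per site of the members was 1.43% in polysome RNA and 1.92% in total RNA of YTHDF3-ADAR, against 1.44% and 1.76% over all genes. It was 1.14% and 1.41% in YTHDF2-ADAR, against 1.13% and 1.19%, and 2.46% and 2.88% in YTHDF1-ADAR, against 1.74% and 2.00%.

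**Figure D4:**
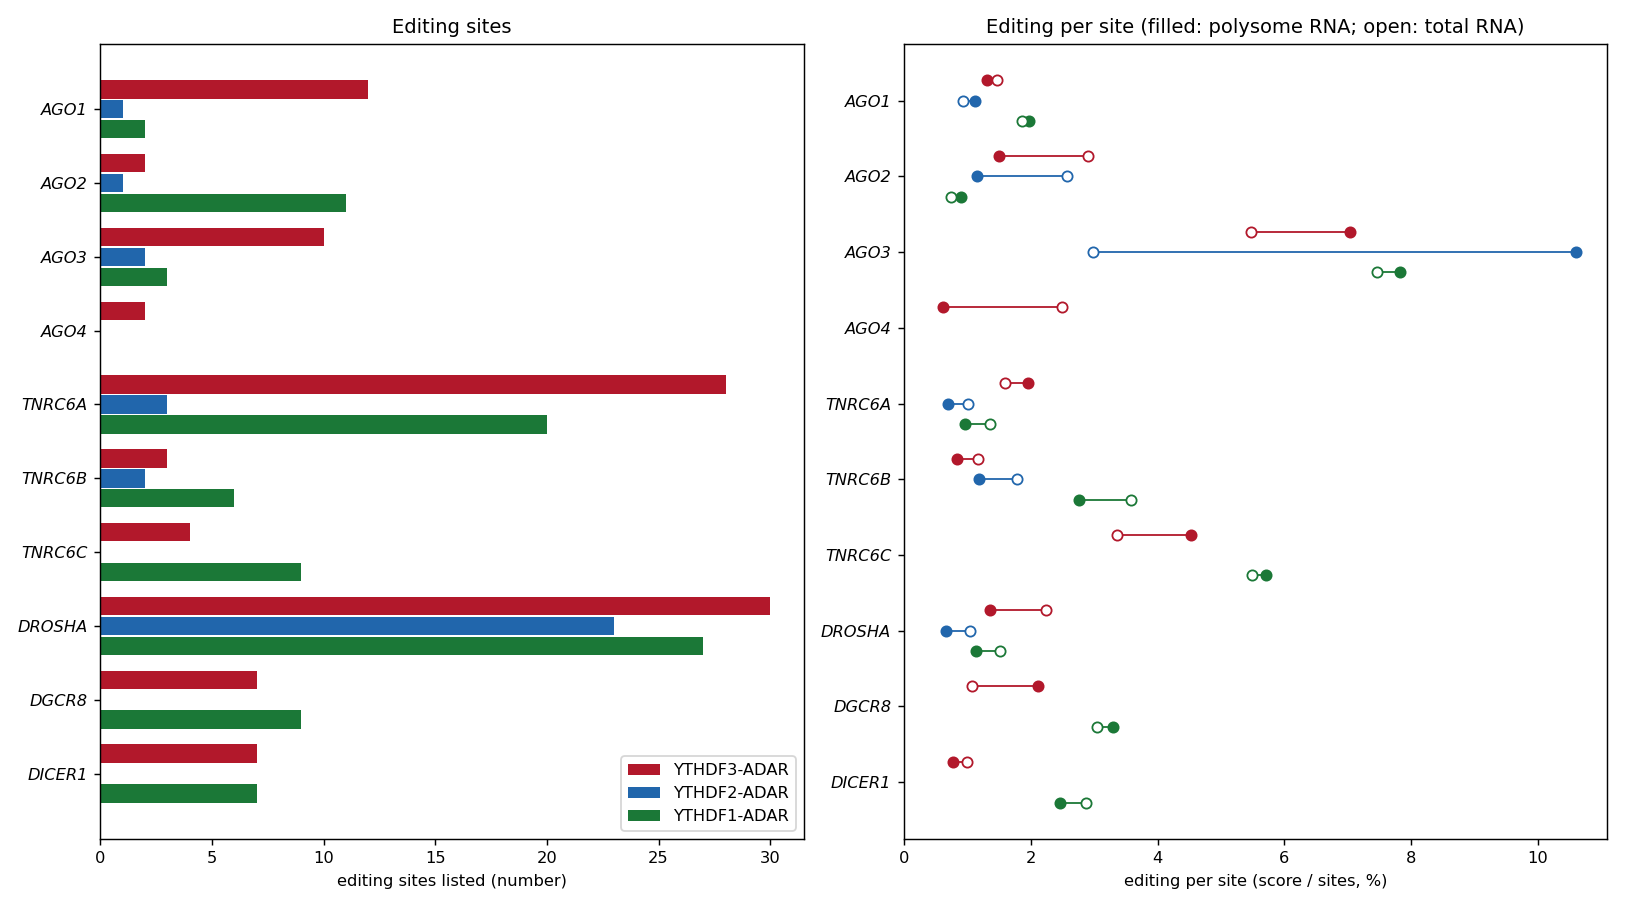
Editing sites listed per member and line (left) and editing per site in percent (right; polysome RNA filled, total RNA open, joined by a line), from the authors' tables with 1 value per line and no replicate error. DROSHA has 23 to 30 sites in each line, AGO3 has the highest editing per site, and a missing bar means that the member was not listed.

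Within groups, some members moved together from library to library. After subtraction of the 6 group means, log2 CPM of AGO3 and DICER1 gave Pearson's r = 0.97 over 18 libraries, AGO1 and TNRC6A 0.91, DGCR8 and TNRC6A 0.88, and DGCR8 and AGO4 -0.91. These values describe the same libraries and share their depth and scaling. Over the 16 libraries without YTHDF3-ADAR replicate 1, AGO3 and DICER1 still gave 0.97, and AGO1 and TNRC6A fell to 0.65. DGCR8 and TNRC6A gave 0.24, and DGCR8 and AGO4 turned to 0.49, so the values of these DGCR8 pairs rested on that replicate. Among 11804 other genes and over all 18 libraries, replicate 1 included, the closest were ICE1 for DICER1 (0.99), NCOA2 for AGO3 (0.98), PTPN18 for AGO4 (0.99), LUC7L for DGCR8 (0.99) and HUS1 for TNRC6A (0.97). The closest were PPM1L for TNRC6B (0.95), EYA3 for AGO1 (0.94), AFF1 for AGO2 (0.93), CPSF7 for TNRC6C (0.92) and HNRNPK for DROSHA (0.91).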

How the data were processed

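Per the labels' protocols, 150 ng of RNA per sample was depleted of ribosomal RNA and made into strand-specific libraries. Per the submitters' processing notes, STAR 2.7.7, featureCounts 2.0.1 and DESeq2 were used with GRCh38 (hg38), and no source used here states their roles, the strand setting or the annotation release. The authors deposited 1 table of read counts per gene and library with no normalization, 1 comparison table with a signal (baseMean), a log2 fold change and p-values, and 3 editing tables. The authors' editing score is a sum over sites and not a share, and the authors' column of change is the natural log of an odds ratio (largest difference from the recomputed value 5.62e-08), although its header names log2. No source used here states how the authors called sites, combined replicates and tested editing.

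The tests on counts used edgeR 4.0.16 under R 4.3.3, with filterByExpr (minimum count 10) and TMM factors. The non-human row, at most 1.48e-05% of counts, was left out. A single quasi-likelihood fit held the 6 group means. It did not use the pairs of same-numbered libraries, which entered in the replicate block alone. Every p was Benjamini-Hochberg adjusted over 26804 genes, and "called" means an adjusted p under 0.05. CPM are relative to the scaled library total. SE was taken as the log2 fold change over the square root of F. Alternatives used DESeq2 1.42.0, other scaling or filters, the compared groups alone, single libraries left out and a replicate block. The fit was tested on simulated data.

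Within a line, libraries of both fractions with the same number deviated together from their group means in 9 of 9 pairs (r from 0.225 to 0.759), so the numbers were taken as pairs within a line; 4 of 18 different-numbered pairs also had r above 0.1. Replicates of a group differed by at least 6.53 in chi-square per degree of freedom, so none was counted as a duplicate.

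All 10 members are named in every comparison. Of the partner lists, genes called in the average over lines and up to 4 more a comparison with the largest fold changes are named. Members, lists and alternatives were chosen with earlier results of these data known. RefSeq microRNAs were matched to members by coordinates, with the exception of AGO2, which was not searched. Read counts carry no molecular identifiers, so errors cover these libraries alone.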

Additional observations from a re-analysis of the deposited data

How the results depend on the processing

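Members called changed with the setting as follows, where the 3 settings that leave out YTHDF3-ADAR replicate 1, its replicates 2 and 3, or replicate 1 of total RNA of the other lines were chosen after seeing the data. For polysome RNA against total RNA in YTHDF3-ADAR, 1 member was called, against 2 with the replicate block, 2 without YTHDF3-ADAR replicate 1 in both fractions, and 0 each without its replicates 2 and 3, without replicate 1 of total RNA of YTHDF2-ADAR and YTHDF1-ADAR, with no filter on low counts and with the compared groups alone. Leaving out single libraries gave 0 to 2. In YTHDF2-ADAR, 0 were called, against 1 with the replicate block, 2 without YTHDF3-ADAR replicate 1, 2 without YTHDF3-ADAR replicates 2 and 3, 2 with the compared groups alone and 3 without normalization factors, and 0 to 1 on leaving out single libraries. In YTHDF1-ADAR, 1 was called, against 2 with the replicate block, 2 without YTHDF3-ADAR replicate 1, 2 without its replicates 2 and 3, 2 with the compared groups alone, 3 without normalization factors, 0 with no filter and 0 without replicate 1 of total RNA of YTHDF2-ADAR and YTHDF1-ADAR, and 0 to 2 on leaving out single libraries. The average over lines called 3, against 7 without normalization factors, 1 with no filter and 1 without replicate 1 of total RNA of both other lines, and 1 to 3 on leaving out single libraries. It already uses every library, so a fit of the compared groups alone was the same fit. Calls over all genes are given below for the replicate block and, in the average, without normalization factors. For the other settings on polysomes they are not given here, so these changes in count are not shown to be particular to the members.

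Between lines, total RNA of YTHDF3-ADAR against YTHDF2-ADAR called 3, against 5 without YTHDF3-ADAR replicate 1, 0 without its replicates 2 and 3, and 1 without normalization factors. Against YTHDF1-ADAR it called 3, against 5 without YTHDF3-ADAR replicate 1, 1 without its replicates 2 and 3, 1 without replicate 1 of total RNA of YTHDF2-ADAR and YTHDF1-ADAR, 1 with the replicate block, 0 with the compared groups alone and 1 to 4 on leaving out single libraries. Polysome RNA of YTHDF3-ADAR against YTHDF2-ADAR called 3, against 5 without YTHDF3-ADAR replicate 1 and 0 without its replicates 2 and 3, and 2 to 5 on leaving out single libraries. Against YTHDF1-ADAR it called 5, against 0 without YTHDF3-ADAR replicates 2 and 3, 0 with the compared groups alone, 3 with no filter, 1 without normalization factors and 1 to 6 on leaving out single libraries. YTHDF2-ADAR against YTHDF1-ADAR polysome RNA called 0, against 1 without YTHDF3-ADAR replicate 1 (AGO4, -0.27). The difference of the polysome change of YTHDF3-ADAR with each other line called 0, against 1 without YTHDF3-ADAR replicate 1. The causes were not tested, other than fewer libraries where libraries were left out.

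Without normalization factors the median log2 fold change of all genes on polysomes moved to 0.25 in YTHDF3-ADAR, 0.40 in YTHDF2-ADAR, 0.46 in YTHDF1-ADAR and 0.36 in their average, where 13737 of 16663 called genes were higher, against 5910 of 12042 with TMM. There, 16 polysome values of members turned positive. Those called with or without the factors were AGO2 in YTHDF2-ADAR (0.34), YTHDF1-ADAR (0.36) and the average (0.32), DROSHA in YTHDF2-ADAR (0.30), AGO4 in the average (0.30), and TNRC6C in YTHDF1-ADAR (0.088) and the average (0.018), each below its all-gene median. The other 9, called in neither fit, were those of AGO4 in each line, TNRC6A in YTHDF3-ADAR, YTHDF2-ADAR and the average, AGO2 in YTHDF3-ADAR, and TNRC6C and DGCR8 in YTHDF2-ADAR (0.06 to 0.35). Between lines the numbers did not pair the libraries, since same-numbered libraries of different lines had r above 0.1 in 8 of 18 pairs (-0.558 to 0.879). With a block on them, total RNA of YTHDF3-ADAR against YTHDF1-ADAR kept AGO2 and lost AGO4 (adjusted p = 0.0739) and TNRC6C (adjusted p = 0.0788), that against YTHDF2-ADAR lost TNRC6A (adjusted p = 0.0571), and polysome RNA against YTHDF1-ADAR lost AGO2 (adjusted p = 0.0612). Over all genes the block within a line raised the calls in YTHDF3-ADAR to 9030, against 5392, in YTHDF2-ADAR to 8158, against 4223, and in YTHDF1-ADAR to 9843, against 5674, and it changed no member's call other than those given above. Of 3500 alternatives of single members, 131 lost the call with the same sign and 52 gained one with the same sign. The sign changed in 234, of which 227 were called in neither fit. Ranks per length with TPM in place of RPKM and editing medians over members with at least 3 or 5 sites did not move beyond their spread. Depth behind the editing scores is unknown, which limits the members with few sites.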
